A study of Mus musculus with 7 samples.

Results

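The receptors for serotonin, acetylcholine, noradrenaline, histamine, opioid peptides and endocannabinoids were described in bulk RNA from the medial prefrontal cortex. Members were taken by gene symbol, as every row of the authors' deposited table whose symbol is that of a serotonin (Htr), muscarinic (Chrm), nicotinic (Chrn), adrenergic (Adra, Adrb), histamine (Hrh), opioid (Opr) or cannabinoid (Cnr) receptor, and 47 of 17732 listed genes matched. The 47 comprise 13 serotonin, 5 muscarinic, 12 nicotinic, 8 adrenergic, 3 histamine, 4 opioid and 2 cannabinoid receptor genes. The symbol pattern does not take in the alpha-2C adrenoceptor gene Adra2c, which is given separately. Htr3b, Chrna9, Chrna10, Chrnd, Chrng and Hrh4 were not analysed here.

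The tissue came from male wild-type mice of the 129SvEv inbred strain after retrieval of a remote memory. It was sequenced as 3 libraries of the group labelled CFC and 4 of the group labelled SC. The labels give no other allele, agent, age or time for either group, do not spell the group names out, and do not say whether each library is a separate animal, so p-values measure the spread between these libraries only. Values per gene are the authors': a mean normalized count over the libraries, a log2 fold change between the groups, its standard error and a Wald test. In what follows, ± marks the authors' standard error. No value of a single library or of a single group was used here, and the table does not state which group is the numerator, so differences are given as positive or negative and neither group is said to be higher.

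These receptors receive the diffuse ascending inputs of the cortex, from raphe serotonin, locus coeruleus noradrenaline, basal forebrain acetylcholine and hypothalamic histamine neurons, and the local opioid and endocannabinoid signals. Most are G protein-coupled: Gq raises calcium through phospholipase C, Gs raises cyclic AMP, and Gi/o lowers it and restrains transmitter release. The nicotinic receptors and the serotonin Htr3 receptors are instead cation channels built of 5 subunits. In prefrontal cortex many of them sit on particular layers or interneuron classes, so tissue RNA averages over unlike cells.

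No receptor gene passed the authors' test at an adjusted p-value of 0.05. Of the 33 receptors to which the authors' deposited table assigns an adjusted p-value, 0 were under that limit, beside 67 of the 13060 listed genes with one (0.513%). At an unadjusted p-value under 0.05 of the same Wald test stood 7 of 47 receptors (14.9%), beside 1209 of 17729 genes (6.82%). Of these 7, 5 were positive (Chrna5, Adra1a, Htr4, Adra2a and Htr1d) and 2 negative (Hrh3 and Htr5b). That is 10.6% and 4.26% of the receptors, beside 4.04% and 2.78% of all genes in the same directions. Among genes with an adjusted p-value, 5 of 33 receptors (15.2%) were under that unadjusted limit, beside 8.10%. At a mean count of at least 100 it was 3 of 26 receptors (11.5%), beside 8.49% of such genes. By direction that is 7.69% positive and 3.85% negative, beside 4.65% and 3.84%. The receptor nearest to the threshold was Chrna5, at adjusted p = 0.0562 per the authors' deposited table. It ranked 72 by p-value among the 13060 listed genes with an adjusted p-value.

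Signs were mixed across the receptors. The authors' deposited table gave 27 positive and 20 negative log2 fold changes with a median of 0.04, beside 8921 positive and 8811 negative and a median of 0.00099 over all genes. Among receptors with a mean count of at least 100 there were 13 of each sign and the median was -0.0028. The 14 receptors without an adjusted p-value had mean counts from 1.95 to 33.2, below the lowest count at which the table gives one (34.9). The 95% confidence interval of the log2 fold change lay within a 1.5-fold change in either direction for 24 receptors, all of them among the 33 with an adjusted p-value, and within a 1.2-fold change for 7.

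**Figure D1:**
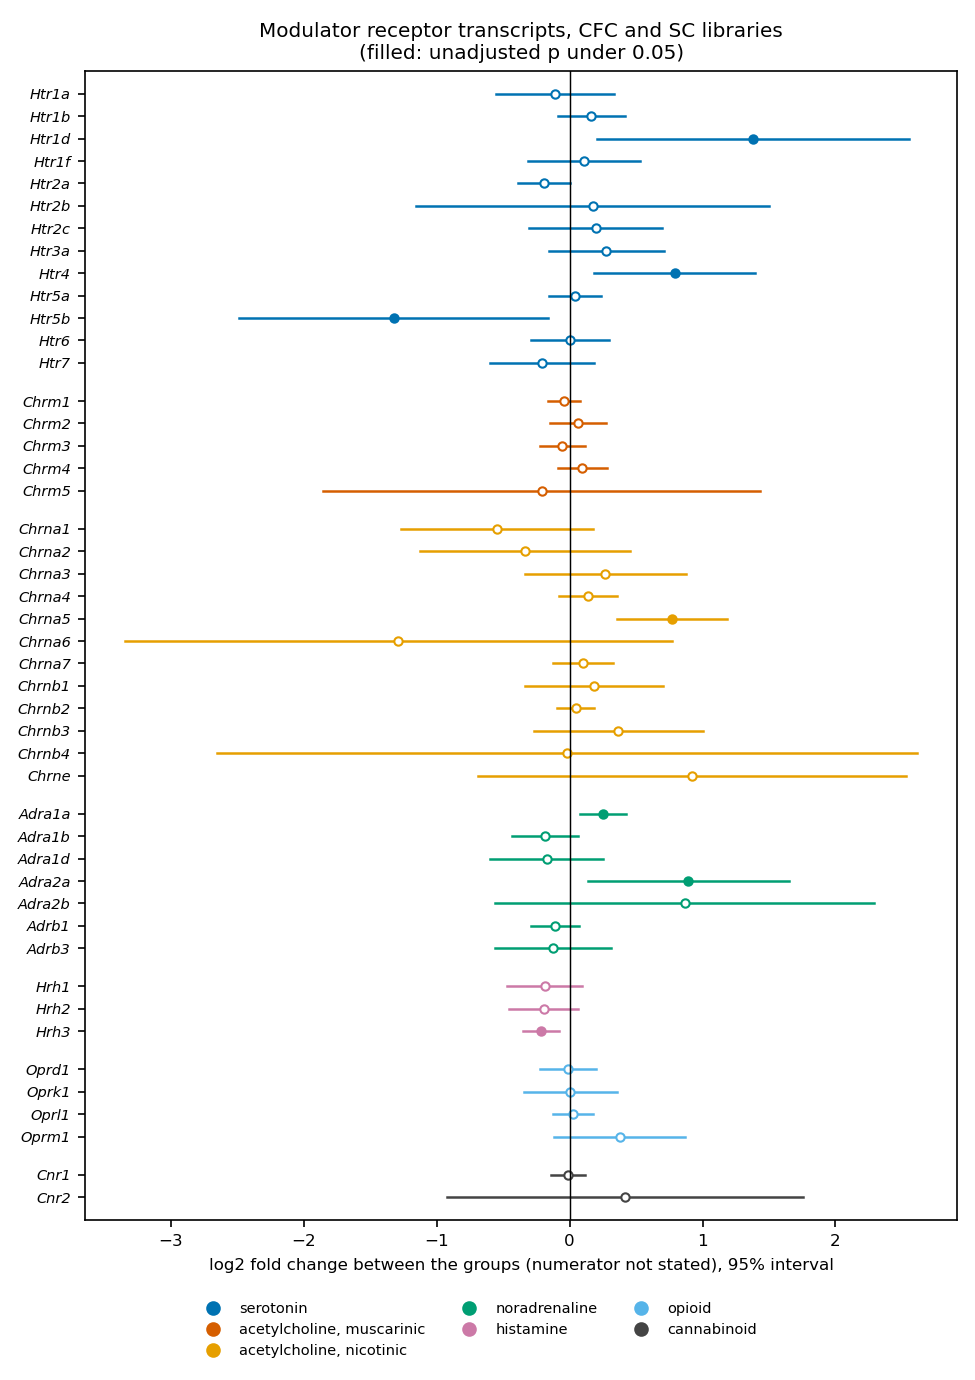
Log2 fold change between the groups (horizontal axis, numerator not stated) of 46 receptor genes, in rows by transmitter, with points for the authors' values and lines for 95% confidence intervals from the authors' standard errors. The 7 filled points have an unadjusted p-value under 0.05, and the widest intervals are those of rarely counted genes such as Chrnb4 and Chrna6.

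The level of a gene was taken as its mean normalized count per kb of annotated exon, averaged over both groups, so that genes of unlike length can be set side by side. The table gives no error for a mean count. Cnr1, the cannabinoid receptor of cortical nerve terminals, had the highest level of the 47 at 993 counts per kb, above 96.6% of listed genes. Next came Chrm1 at 705, the histamine autoreceptor gene Hrh3 at 533 and Chrm4 at 339. At the other end Chrnb4 had 0.524 and Chrna6 1.05 counts per kb. The median of all listed genes was 63.7, and 18 of the 47 receptors lay above it.

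How far a few receptor genes made up the summed level differed between transmitters. Cnr1 made up 99.8% of the summed cannabinoid receptor level per kb, Hrh3 83.1% of that of histamine, Oprl1 61.2% of that of the opioid family and Chrm1 53.4% of that of the muscarinic family. Among the nicotinic subunits Chrna4 held 43.9% and Chrnb2 29.9%, the pair that forms the main high-affinity nicotine receptor of the brain. Adra1d held 36.3% of the adrenergic sum, which leaves out Adra2c, at 75.9 counts per kb. Serotonin receptors were the most evenly spread, with Htr2a at 21.2%, Htr5a at 17.0% and Htr1a at 16.5%. The order of the first 4 genes was the same with the longest transcript as the length.

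**Figure D2:**
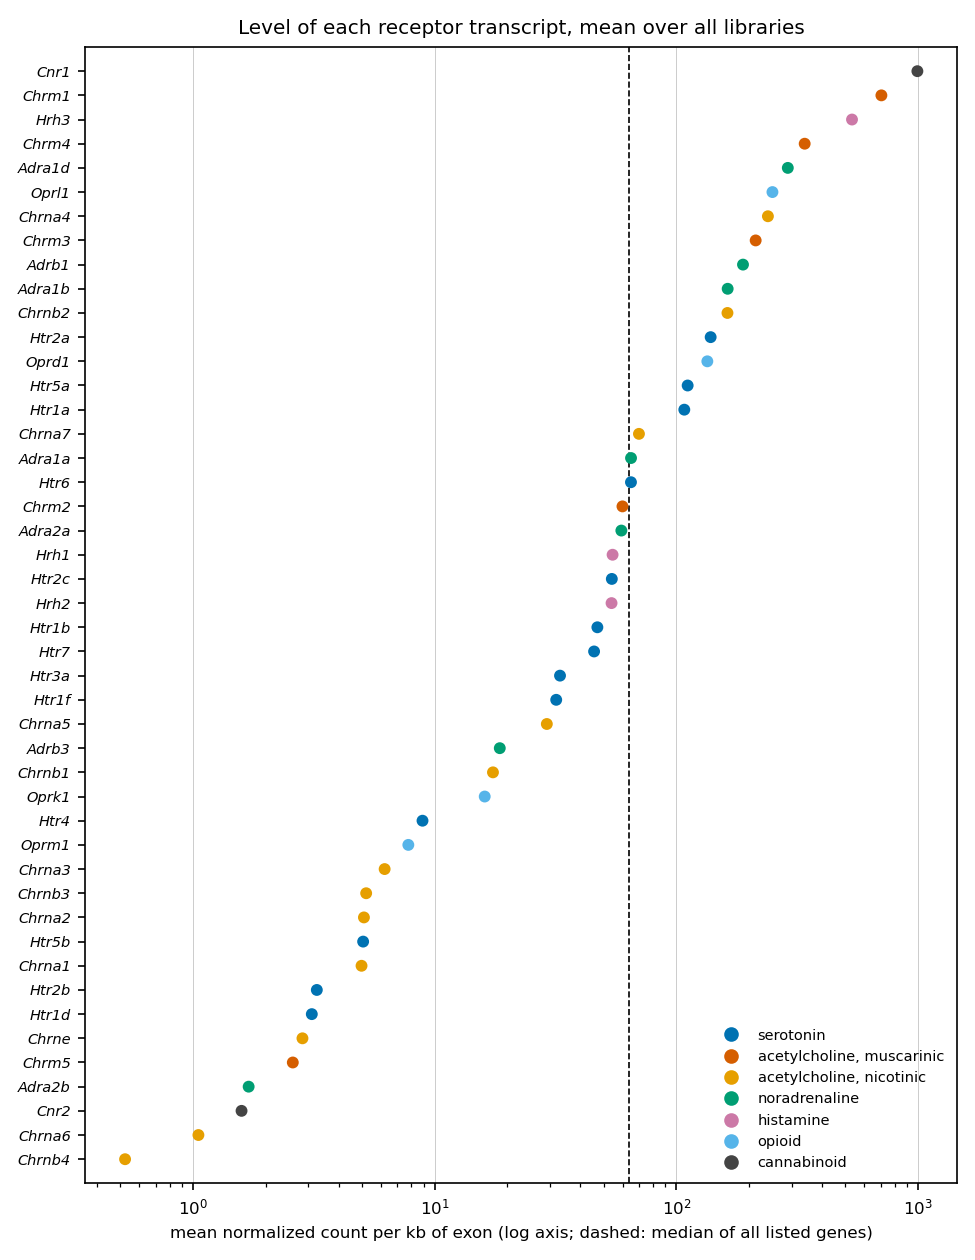
Mean normalized count per kb of exon, averaged by the authors over all libraries (log axis), for 46 receptor genes, coloured by transmitter. Cnr1, Chrm1, Hrh3 and Chrm4 stand at the top, and 18 receptors lie right of the dashed line at 63.7 counts per kb, the median of all listed genes.

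Among the nicotinic subunits, Chrna5 had the smallest p-value of all 47 receptors. It encodes the accessory alpha-5 subunit, which joins alpha-4 and beta-2 subunits in one receptor and in prefrontal cortex is known from layer 6 pyramidal neurons. At a mean count of 91.0, its log2 fold change was 0.77 ± 0.21, unadjusted p = 0.000287 and adjusted p = 0.0562 per the authors' deposited table. This is a 1.71-fold difference, with a 95% confidence interval from 1.28-fold to 2.28-fold. The difference did not pass, and its interval lay wholly on the positive side. Its partners did not share that size: Chrna4 had a log2 fold change of 0.14 ± 0.11 at a mean count of 1201 and unadjusted p = 0.213, and Chrnb2 one of 0.05 ± 0.07, per the authors' deposited table. The 95% confidence interval of Chrnb2, from -0.09 to 0.19, excludes the value of Chrna5, and so does that of Chrna4, from -0.08 to 0.35. Whether the subunits differ from each other was not tested, since values per library were not used. Exons of Chrnb2 overlap those of Adar on the opposite strand over 16.3% of their length, and the strand setting of the counting is not given in the sources used here. Such overlaps, of 1.19% to 24.9% of exon length, were found for 10 of the 47 receptors. Without strand, reads of a gene and its opposite-strand partner cannot be told apart.

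Chrna5 lies at chr9:54980880-55007779 on the plus strand (GENCODE M21 on GRCm38, the assembly also called mm10), as the end member of a cluster of nicotinic subunit genes. Its 3' end is 2332 bases from Chrna3 and Chrna3 is 1592 bases from Chrnb4, both on the minus strand. The neighbours were too rarely counted to compare. Chrna3 had a mean count of 32.7 and a log2 fold change of 0.27 ± 0.31, and Chrnb4 a mean count of 1.95 and a log2 fold change of -0.02 ± 1.34, per the authors' deposited table. The value of Chrna5 lies inside the 95% confidence intervals of both, -0.34 to 0.87 for Chrna3 and -2.65 to 2.62 for Chrnb4.

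RefSeq places 2 start sites at Chrna5, and the sequences before them are shown because this is the receptor gene closest to the threshold and the letters of its start regions are unlike. Each is printed 5' to 3' on the plus strand of GRCm38.p6, from a window of 250 bases that ends at the start site, without bases that GENCODE M21 counts as exons of the gene. Capitals mark the motifs GGGCGG (the GC box), TGACG (the core of the cyclic AMP response element), CACGTG (an E-box) and TATAAA (the TATA box), searched on both strands. The upstream window is chr9:54980630-54980879 and the downstream one chr9:54981248-54981465.
Chrna5 upstream start: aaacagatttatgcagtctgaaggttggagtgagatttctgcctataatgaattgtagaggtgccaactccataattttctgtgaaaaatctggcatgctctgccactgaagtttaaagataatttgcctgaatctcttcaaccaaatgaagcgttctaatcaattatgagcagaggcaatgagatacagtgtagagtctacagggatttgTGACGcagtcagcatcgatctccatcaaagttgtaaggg
Chrna5 downstream start: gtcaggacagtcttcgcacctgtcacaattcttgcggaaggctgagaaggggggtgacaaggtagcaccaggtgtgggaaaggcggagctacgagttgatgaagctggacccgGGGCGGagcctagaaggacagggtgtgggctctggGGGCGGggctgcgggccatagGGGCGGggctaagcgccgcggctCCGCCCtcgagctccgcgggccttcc
The upstream window has 40.0% G and C and holds 1 TGACG and no GC box, and the downstream window has 67.0% G and C and holds 4 GC boxes and none of the other motifs. The downstream stretch has 218 bases, with 32 left out as exon, whereas the shares that follow are over whole windows with exon bases kept. Of all 32851 RefSeq windows of 250 bases, 32.7% hold a GC box, 17.8% TGACG, 6.02% the E-box and 12.4% the TATA box. Of the 50 windows of the 35 receptor genes matched by symbol, 23 hold a GC box (46.0%), 6 TGACG, 4 the E-box and 3 the TATA box. The counts per gene do not tell which start was used.

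Some markers of the deep and upper cortical layers passed the test between the same libraries, and no layer 5 marker did. Of 5 markers each, the layer 6b list (Ccn2, Nxph4, Cplx3, Moxd1, Svil) had 5 positive, a median log2 fold change of 1.17 and 2 passing at an adjusted p-value of 0.05, per the authors' deposited table. The layer 6 list (Foxp2, Tle4, Hs3st4, Syt6, Tbr1) had 5 positive, a median of 0.49 and 3 passing. The layer 5 list had 5 positive, a median of 0.17 and 0 passing, with 3 at an unadjusted p-value under 0.05. The layer 2/3 list (Cux2, Otof, Calb1, Rasgrf2, Cux1) had 5 negative, a median of -0.27 and 2 passing. The log2 fold change of Chrna5, at 0.77, stood beside 0.73 for Foxp2, 0.49 for Hs3st4 and 0.33 for Tle4 per the authors' deposited table. None of these markers was listed at 0, and their part in the value of Chrna5 was not tested. In bulk tissue, fewer cells of a type and less RNA per cell cannot be told apart.

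**Figure D3:**
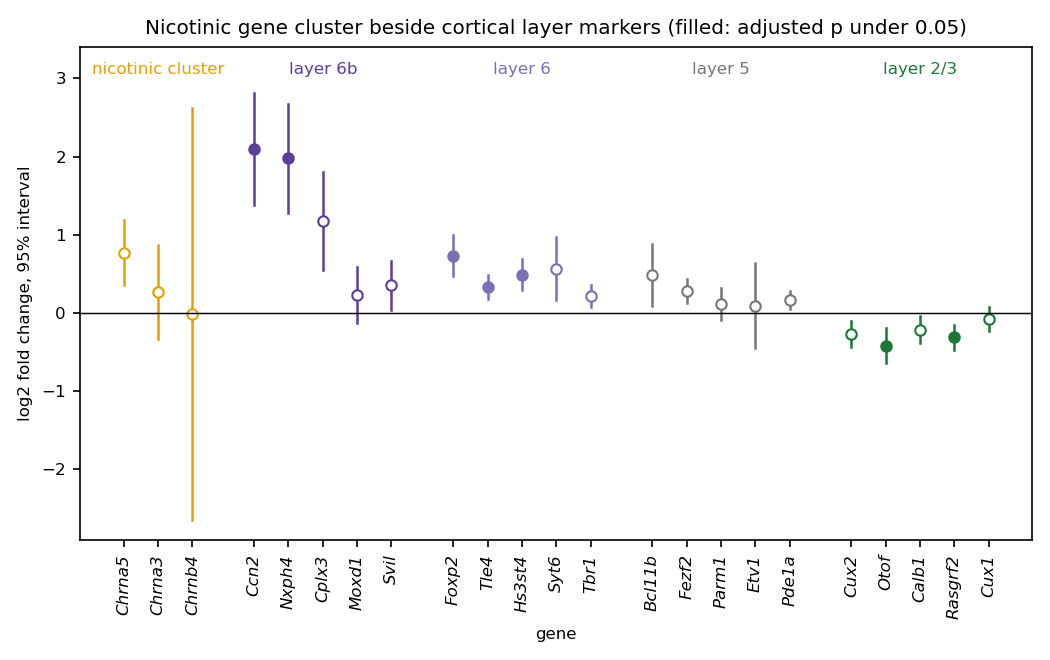
Log2 fold change (vertical axis, numerator not stated) with 95% confidence interval for the nicotinic genes Chrna5, Chrna3 and Chrnb4 and for 5 markers each of layer 6b, layer 6, layer 5 and layer 2/3 neurons; filled points have an adjusted p-value under 0.05. Chrna5, at 0.77, lies on the side of the layer 6b and layer 6 markers, and all 5 layer 2/3 markers lie below 0.

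The 12 nicotinic subunits, Chrna5 included, had a median log2 fold change of 0.12, and 8 of them were above 0. All 5 with an adjusted p-value were positive. The 4 negative ones were too rarely counted to have one. Chrna7, whose product forms the alpha-bungarotoxin-binding receptor as a homomer, had a log2 fold change of 0.10 ± 0.11 per the authors' deposited table. Chrna6 had the value farthest from 0, -1.29, but its standard error was 1.05 at a mean count of 3.06 per the authors' deposited table. Its unadjusted p-value there was 0.220, and no direction can be read from it. The subunits best known from muscle, Chrna1, Chrnb1 and Chrne, had mean counts of 21.8, 44.1 and 4.79 per the authors' deposited table, and none had an unadjusted p-value under 0.05.

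The muscarinic receptors, which carry the slower response to acetylcholine, had no member at an unadjusted p-value under 0.05. Chrm1, the main Gq-coupled form of cortical pyramidal neurons, had a log2 fold change of -0.04 ± 0.06 and unadjusted p = 0.484 at a mean count of 4573 per the authors' deposited table. With 95% confidence bounds of -0.16 and 0.08, it was one of the 7 receptors held within a 1.2-fold change. The Gi/o-coupled Chrm2 and Chrm4 had log2 fold changes of 0.06 ± 0.11 and 0.10 ± 0.09, and the Gq-coupled Chrm3 one of -0.05 ± 0.09, per the authors' deposited table. Chrm5 was barely counted, at a mean of 4.14, and stood at -0.21 ± 0.84 with unadjusted p = 0.802 per the authors' deposited table.

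Serotonin receptors gave 3 of the 7 genes at an unadjusted p-value under 0.05. That is 3 of 13 (23.1%), beside 6.82% of all genes. Among those with an adjusted p-value it was 1 of 10 (10%), beside 8.10% of all such genes. Htr4, a Gs-coupled receptor, had a log2 fold change of 0.79 ± 0.31, unadjusted p = 0.0106 and adjusted p = 0.369 at a mean count of 43.7 per the authors' deposited table. Htr1d and Htr5b, both grouped here as Gi/o-coupled, had opposite signs at near-equal abundance. Htr1d was at 1.38 ± 0.60 and unadjusted p = 0.0212, and Htr5b at -1.32 ± 0.59 and unadjusted p = 0.0256, per the authors' deposited table. Their mean counts were 9.93 and 9.79, below the authors' limit, and with no limit on the count their adjusted p-values were 0.551 and 0.592 by the Benjamini-Hochberg method over all genes.

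Htr2a, the Gq-coupled receptor of cortical pyramidal neurons at which psychedelic drugs act and the serotonin receptor with the highest level per kb, lay just outside that limit on the p-value. Its log2 fold change was -0.19 ± 0.10, unadjusted p = 0.0504 and adjusted p = 0.652 at a mean count of 777 per the authors' deposited table. The Gi/o-coupled autoreceptor and inhibitory postsynaptic receptor gene Htr1a was at -0.11 ± 0.23, per the authors' deposited table. The interval of 95% confidence runs from a 0.683-fold to a 1.26-fold ratio. Htr2c was at 0.20 ± 0.26, and Htr3a, the channel subunit found on superficial interneurons, at 0.28 ± 0.22, per the authors' deposited table. Htr1b, Htr1f, Htr2b, Htr5a, Htr6 and Htr7 ranged from -0.21 to 0.17 with unadjusted p-values of at least 0.208, per the authors' deposited table. Of the 13 serotonin receptors, 9 were positive and 4 negative, with a median of 0.11.

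Among the adrenergic receptors, the genes at an unadjusted p-value under 0.05 were the Gq-coupled Adra1a and the Gi/o-coupled Adra2a, both positive. Adra1a had a log2 fold change of 0.25 ± 0.09, unadjusted p = 0.00492 and adjusted p = 0.259 at a mean count of 566 per the authors' deposited table. The other alpha-1 genes had the opposite sign, Adra1b at -0.18 ± 0.12 and Adra1d, at a mean count of 549, at -0.17 ± 0.22 and unadjusted p = 0.428, per the authors' deposited table. The upper bound of the 95% confidence interval of Adra1b, 0.06, lay below the lower bound of that of Adra1a, 0.08; the difference itself was not tested.

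Adra2a encodes the alpha-2A adrenoceptor, an autoreceptor and a postsynaptic target of guanfacine in prefrontal cortex. At a mean count of 286, its log2 fold change was larger than that of Adra1a, at 0.89, but so was its standard error, at 0.39. Its unadjusted and adjusted p-values were 0.0205 and 0.474 per the authors' deposited table. The 95% confidence interval ran from a 1.10-fold to a 3.14-fold difference. Adra2b was at 0.86 ± 0.73 at a mean count of 6.82, and Adra2c, outside the symbol pattern, at -0.13 ± 0.13, per the authors' deposited table. Adrb1, which encodes the beta-1 adrenoceptor, was at -0.11 ± 0.09 per the authors' deposited table. Adrb3 was at -0.12 ± 0.22 per the authors' deposited table.

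All 3 histamine receptor genes were negative. Hrh3, a Gi/o-coupled receptor that restrains the release of histamine and other transmitters, had the second smallest p-value of the 47 receptors. Its log2 fold change was -0.22 ± 0.07, unadjusted p = 0.00177 and adjusted p = 0.159 at a mean count of 1676 per the authors' deposited table. That is a 1.16-fold difference, with a 95% confidence interval on the log2 scale from -0.35 to -0.08. The Gq-coupled Hrh1 and the Gs-coupled Hrh2 had log2 fold changes of -0.19 ± 0.14 and -0.20 ± 0.13, and unadjusted p-values of 0.186 and 0.139, per the authors' deposited table. The 3 values were thus alike in size, and the smaller standard error of Hrh3 went with its higher count. Exons of Hrh3 overlap the opposite-strand gene Gm17180 over 11.1% of their length, and those of Hrh2 overlap Gm16578 over 2.44%.

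Hrh3 lies at chr2:180099465-180104488 on the minus strand. The bases before its RefSeq start are shown to set the negative receptor gene with the smallest p-value beside the starts of Chrna5. They are those of chr2:180104489-180104657 in GRCm38.p6, printed 5' to 3' on the minus strand, without the 81 bases of the window that GENCODE M21 counts as exon of Hrh3, and with capitals as above.
Hrh3 start: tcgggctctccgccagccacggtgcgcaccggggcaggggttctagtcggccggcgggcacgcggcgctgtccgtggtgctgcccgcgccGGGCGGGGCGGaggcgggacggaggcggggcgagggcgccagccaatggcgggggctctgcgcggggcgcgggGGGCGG
This stretch of 169 bases has 82.8% G and C and holds 3 GC boxes, the first 2 of them overlapping in part, and none of the other motifs.

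None of the opioid or cannabinoid receptors had an unadjusted p-value under 0.05. Oprl1, the nociceptin receptor and the opioid-family gene with the highest level per kb, had a log2 fold change of 0.02 ± 0.08 and unadjusted p = 0.768 at a mean count of 937 per the authors' deposited table. The delta receptor gene Oprd1 was at -0.01 ± 0.11 and the kappa receptor gene Oprk1 at 0.0065 ± 0.18 per the authors' deposited table. The mu receptor gene Oprm1 was farther from 0, at 0.38 ± 0.25 and unadjusted p = 0.133 at a mean count of 62.5 per the authors' deposited table. Cnr1 was at -0.01 ± 0.06 and unadjusted p = 0.872 at a mean count of 6400, and Cnr2, best known from immune cells, at 0.42 ± 0.68 and unadjusted p = 0.543 at a mean count of 6.32, per the authors' deposited table. The 95% confidence intervals of Cnr1, from -0.14 to 0.12, and Oprl1, from -0.13 to 0.17, leave room for less than a 1.2-fold difference in either direction.

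Grouped by the signal they start, the receptors again had mixed signs. Of the 17 Gi/o-coupled receptors 12 were positive and the median log2 fold change was 0.06, and of the 10 Gq-coupled ones 3, with a median of -0.11. Of the 7 Gs-coupled receptors 3 were positive, with a median of -0.11, and of the 13 channel subunits 9. No group had a member under an adjusted p-value of 0.05 per the authors' deposited table. At an unadjusted p-value under 0.05 stood 4 receptors grouped as Gi/o-coupled (Adra2a, Htr1d, Hrh3, Htr5b). Beside them were 1 Gq-coupled receptor (Adra1a), 1 Gs-coupled (Htr4) and 1 channel subunit (Chrna5). By group that is 4 of 17, 1 of 10, 1 of 7 and 1 of 13, beside 1209 of 17729 genes (6.82%). Among receptors with an adjusted p-value it was 2 of 13 Gi/o-coupled, 1 of 8 Gq-coupled and 1 of 6 Gs-coupled ones, beside 8.10% of all such genes.

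Several receptors had standard errors larger than their abundance alone would give. Each standard error was divided by the median of the 500 genes nearest in mean count, and the ratio was above 2 for 4 of 47 receptors (8.51%), beside 260 of 17732 genes (1.47%). The ratio was 3.27 for Adra2a, 2.68 for Htr2c, 2.37 for Adra1d and 2.34 for Htr1a, against a median of 1.02 over the receptors. At a like mean count, a larger standard error stands for a wider fitted spread between libraries of a group. For Chrna5 and Hrh3 it was 1.09 and 1.02, so their errors were ordinary for their counts.

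Of the marker lists, those of oligodendrocytes and striatum had median ratios above 2. The median ratio was 7.40 over 6 oligodendrocyte markers, 3.33 over 7 striatal markers, 1.26 over 8 interneuron markers, 1.07 over 5 markers of neurons in general and 0.974 over 5 microglial markers. All 6 oligodendrocyte and all 7 striatal markers were positive, with median log2 fold changes of 1.13 and 0.76. Of these only Drd1, from the striatal list, passed an adjusted p-value of 0.05 per the authors' deposited table. Drd1 had a ratio of 1.25, whereas 6 of the 7 striatal markers had one above 2. Beside these, Chrm4, which striatal neurons express strongly, had a ratio of 0.970 and a log2 fold change of 0.10 per the authors' deposited table. For Htr2c, which is very abundant in choroid plexus, 5 of 6 choroid plexus markers were listed, 3 positive and 2 negative, with mean counts from 6.17 to 80.7 per the authors' deposited table. Their log2 fold changes were 1.86 ± 1.11 for Ttr, which had no p-value, 0.59 ± 0.22 for Kl, 0.64 ± 0.62 for Clic6, -0.99 ± 0.79 for Kcne2 and -1.19 ± 0.60 for Aqp1, per the authors' deposited table. The list is thus split. Ttr and Kl had mean counts of 67.0 and 80.7. Clic6, Kcne2 and Aqp1 had mean counts of 9.98, 6.17 and 9.07. The unadjusted p-value of the Wald test was 0.0075 for Kl and 0.0469 for Aqp1. Only Ttr had a ratio above 2, at 4.90. The 8 interneuron markers were 4 positive and 4 negative around a median of 0.0035, and of them only Cck passed, at -0.24 ± 0.06 and adjusted p = 0.0436 per the authors' deposited table. The level of Cck, 3268 counts per kb, was above the 697 of Gad2 on the same list. Which cells the Cck value comes from was not tested, so it is not read as one of interneurons. Of the 5 neuronal markers only Camk2a passed, at -0.29 ± 0.06 and adjusted p = 0.00151, while Slc17a7 was at -0.03 ± 0.05, per the authors' deposited table. The part of any of these cells in the receptor values was not tested. Pou4f1 of the habenula markers was not analysed here, and the subunit genes known from habenula, Chrnb4 and Chrna3, were at mean counts of 1.95 and 32.7 per the authors' deposited table.

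**Figure D4:**
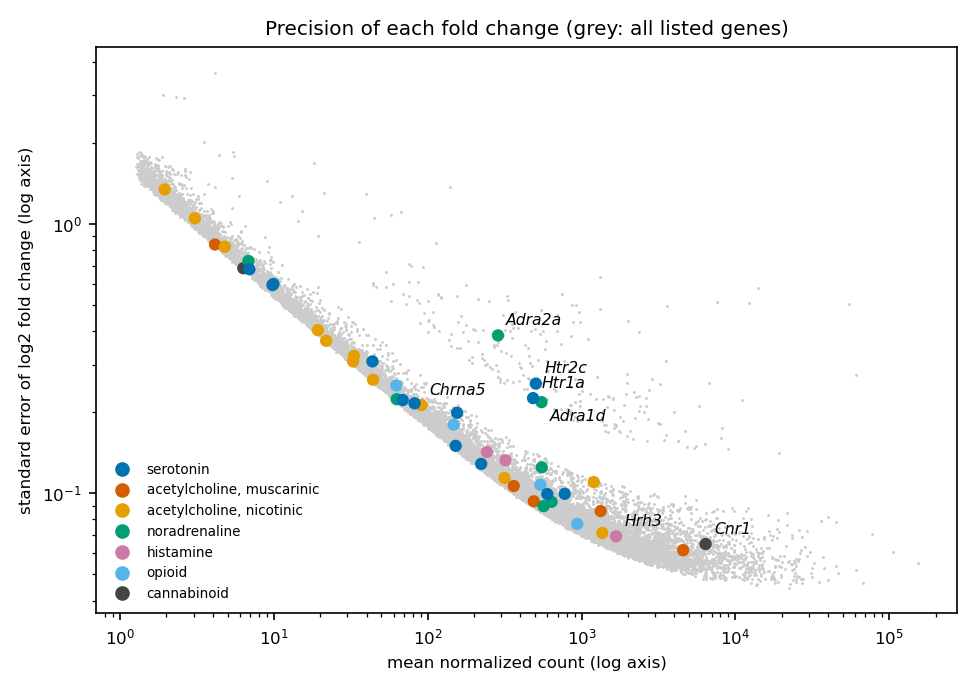
Standard error of the log2 fold change against mean normalized count, both on log axes, for all 17732 listed genes (grey) and 46 receptors (coloured by transmitter). Adra2a, Htr2c, Htr1a and Adra1d stand above the band of genes with like counts, and Chrna5, Hrh3 and Cnr1 lie in it.

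The genes that make, clear and transduce these signals were looked up in 7 lists. None of the 79 listed genes on them passed an adjusted p-value of 0.05 per the authors' deposited table. With Adra2c they form 80 genes, 30 positive and 50 negative, of which 8 had an unadjusted p-value under 0.05 (10%, 3 positive and 5 negative), beside the 6.82% of all genes. The acetylcholine list had 7 of 8 genes positive and a median log2 fold change of 0.39, but 4 of the 8 were too rarely counted to have an adjusted p-value. Slc5a7, the choline transporter of cholinergic terminals, is not among those 4. It was at 0.72 ± 0.30, unadjusted p = 0.0160 and adjusted p = 0.430 per the authors' deposited table. Prima1, the membrane anchor of acetylcholinesterase, was at 1.27 ± 0.47 and unadjusted p = 0.0072 at a mean count of 20, with no adjusted p-value, per the authors' deposited table. The enzyme gene itself, Ache, was at 0.10 ± 0.07, and the synthetic enzyme gene Chat at 0.62 ± 0.64, per the authors' deposited table. The striatal markers, all 7 positive, had the same sign, and their part in these values was not tested. Of the nicotinic chaperone and Ly6 list, 3 of 10 were positive, and Lypd1, a Ly6 protein, was at 0.24 with unadjusted p = 0.0432 per the authors' deposited table.

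All 10 genes of the endocannabinoid list were negative, and their median log2 fold change was -0.13. The list is a broad one, which also takes in the phospholipase C genes Plcb1, at -0.07, and Plcb4, at -0.12, and Cnrip1, at -0.03. Mgll, which breaks down 2-arachidonoylglycerol, was at -0.20 ± 0.07, unadjusted p = 0.0047 and adjusted p = 0.256 per the authors' deposited table. Faah, which breaks down anandamide, was at -0.15 ± 0.07 and unadjusted p = 0.0393, and the synthetic enzyme gene Dagla at -0.13 with unadjusted p = 0.0542, per the authors' deposited table. The value of the receptor gene Cnr1, -0.01 per the authors' deposited table, was closer to 0 than any of the 10. All 10 are also abundant genes, with mean counts of at least 321, and the part of the layer and cell markers in these values was not tested.

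In the opioid peptide list 4 of 8 genes were positive, and the dynorphin precursor gene Pdyn was at -0.24 ± 0.10 and unadjusted p = 0.0234 per the authors' deposited table. The enkephalin precursor gene Penk was at 0.59 ± 0.37 per the authors' deposited table. Its standard error was 4.10 times the median of genes with a like count, and it is also one of the striatal markers. The monoamine list of synthesis, transport and breakdown had 7 of 17 positive, a median of -0.01 and 0 genes at an unadjusted p-value under 0.05. Of the G protein alpha subunits 4 of 10 were positive, and Gnas, which encodes Gs alpha, was at -0.25 ± 0.09 and unadjusted p = 0.00627 per the authors' deposited table. Of the receptor kinases, arrestins and RGS proteins 5 of 16 were positive, and Grk2, the main receptor kinase, was at -0.11 ± 0.05 and unadjusted p = 0.0381 per the authors' deposited table. The most abundant genes of the lists other than acetylcholine, by mean count, were Aldh2 at -0.06 ± 0.07, Nptn at -0.06 ± 0.06, Cpe at -0.03 ± 0.05, Plcb1 at -0.07 ± 0.08, Gnao1 at 0.02 ± 0.05 and Arrb1 at -0.03 ± 0.06, per the authors' deposited table.

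**Figure D5:**
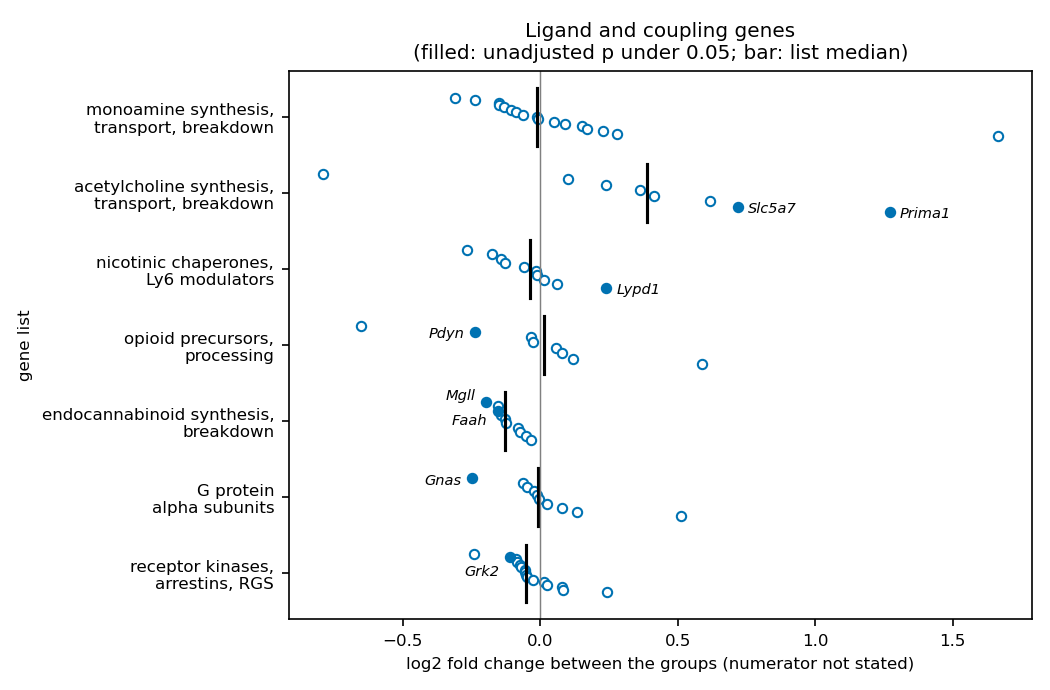
Log2 fold change (horizontal axis, numerator not stated) of each gene in 7 lists of ligand and coupling genes, 1 point a gene, with a black bar at the list's median; filled points have an unadjusted p-value under 0.05. All 10 genes of the endocannabinoid list lie left of 0, 7 of 8 acetylcholine genes lie right of it, and the other lists straddle it.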

How the data were processed

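Polyadenylated RNA of 7 libraries, 3 CFC and 4 SC, was deposited as 1 table of the authors' comparison. Per the submitters' processing notes, Trimmomatic, Subread and DESeq2 and the build mm10 were used, with no version or role given, and the strand setting is not given in the sources used here. Per the file headers, the authors deposited for each gene a mean normalized count (a signal averaged over libraries), a log2 fold change with a standard error, a Wald statistic (a score), and an unadjusted and an adjusted p-value. The statistic equalled the log2 fold change over its standard error, and the p-value its two-sided normal probability, in all 17729 genes with a p-value, within 1e-06. The depth of each library is unknown, and the precision of each gene is taken from the deposited standard error.

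Calls rest on the deposited adjusted p-values of the authors' Wald test (DESeq2), with a threshold of 0.05. A Benjamini-Hochberg adjustment over the 13060 listed genes with one gave 69 calls and 0.0508 for Chrna5. The deposited values were thus not adjusted over exactly those genes. Each 95% confidence interval was taken from a normal distribution with the deposited standard error. Exon lengths, overlaps and positions came from GENCODE M21, which held all 47 receptor IDs, and windows before starts from RefSeq on GRCm38.p6. Alternatives were other thresholds, limits on the mean count, adjustments and a 1.2-fold null. Python 3.11.15 with pandas 2.3.3 and scipy 1.17.1 was used, and the functions were tested on simulated data.

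Receptors and lists were chosen with earlier results of these data known. One receptor gene is included in the counts over the 47 and is not reported here by name or in the figures. Full values are given for receptors with an unadjusted p-value under 0.05 and for those with the highest level or the log2 fold change farthest from 0 in each transmitter family, and other genes were named after their values were seen. For the pathway lists, values are given for genes with an unadjusted p-value under 0.05 and the most abundant gene, and for the marker lists, beside counts and medians, for fewer genes than that. Further marker lists were looked up for layers, striatum, interneurons, choroid plexus, habenula, oligodendrocytes, astrocytes, microglia, vessels and neurons. Of these, 2 of 5 astrocyte, 0 of 5 microglial, 2 of 5 vessel, 4 of 8 interneuron, 2 of 4 habenula and 1 of 5 general neuronal markers were positive.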

Additional observations from a re-analysis of the deposited data

How the results depend on the processing

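No paired analysis was possible because only 1 result per gene, and none per library, was at hand, and for the same reason no library could be left out. With 0.1 as the limit for an adjusted p-value, the count of receptors went from 0 to 1, Chrna5, and the count of all genes from 67 to 101. In the other 6 alternatives the count of receptors was 0. The limit of 100 on the mean count leaves out Chrna5, at 91.0, and a Bonferroni adjustment or a 1.2-fold null could add no receptor. These 3 alternatives therefore could not show a call of Chrna5. Over all genes, a Bonferroni adjustment gave 21 (17 positive, 4 negative) and a 1.2-fold null gave 2 (2 positive, 0 negative), both stricter by construction, and the other 4 gave from 60 to 69. The adjusted p-value of Chrna5 ranged from 0.0508 to 1, and that of Hrh3 from 0.138 to 1. The median log2 fold change of the receptors, 0.04, was 0.02 for those with an adjusted p-value, 0.04 when centred on genes of similar mean count and -0.0028 for those with a mean count of at least 100. For the 12 receptors of the naming rule with an adjusted p-value, all 69 recomputed values stayed above the 0.05 threshold. With the longest transcript as the length, the level per kb differed for 11 of the 17 receptors of that rule, most for Oprm1 (7.78 to 25.8 counts per kb) and Adra1a (64.9 to 132), and over all 47 it moved by over 1.5 times for 5. Whether 1 library decides a value was not tested, and rarely counted genes such as Htr1d and Htr5b have wide intervals.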
